A study of Mus musculus with 12 samples.

Results

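The enzymes and partners of retinoic acid, the active form of vitamin A, were followed in whole mouse colon through 10 genes that take up retinol, turn it into retinoic acid, break the product down or respond to it. The genes were Stra6, Adh1, Rdh10, Dhrs9, Dhrs3, Aldh1a1, Aldh1a2, Aldh1a3, Cyp26b1 and Rarb, found by exact gene symbol in the array annotation, and their probe sets were averaged per gene. All 10 were measured, among 21314 genes in all, by 11 of the 31693 probe sets, since Adh1 had 2 probe sets and the other 9 genes had 1 each. The genes were proposed with results of these data known: Aldh1a3 was seen to be higher after injury in Parp1-/- mice, so the contrast of treated with untreated Parp1-/- mice is given below as values and without a test.

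The study compared mice that lack Parp1, an enzyme that marks DNA breaks by building poly(ADP-ribose) on proteins, with wild-type mice, with and without colitis from drinking dextran sulfate sodium (DSS), a polymer that injures the colon lining. There were 4 groups of 3 mice, 1 Affymetrix array per mouse: wild type on plain water, wild type on 4% DSS for 7 days, Parp1-/- on plain water, and Parp1-/- on 4% DSS for 7 days. All mice were 6 to 8 weeks old and were kept in a conventional animal facility, and the whole colon, washed and frozen, gave the RNA. The sources used here do not say how the Parp1 allele was made, nor the strain or sex of the mice.

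Retinol circulates bound to a carrier and enters cells through the receptor Stra6 or by diffusion. Alcohol and retinol dehydrogenases oxidise it reversibly to retinal, retinal dehydrogenases of the Aldh1a family oxidise retinal irreversibly to retinoic acid, and Cyp26 enzymes hydroxylate retinoic acid and so remove it. Retinoic acid binds nuclear receptors, among them Rarb, and in the gut it is known for imprinting lymphocytes to home to the intestine and for supporting regulatory T cells and IgA.

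The values were on a log2 scale, centred so that each probe set had a median of 0 over the 12 arrays; base 2 and a larger value for more RNA were assumed, since neither is stated. A gene can be compared between arrays, while levels of different genes cannot be compared and whether a gene is present at all cannot be read. Parp1 itself, the check of the labels, was at -0.41, 1.15 and 0.53 in the labelled wild-type water arrays 1, 2 and 3, and wild-type DSS arrays had 0.01, 0.51 and 0.77. Knockout arrays had -0.03, -0.08 and -0.01 on water, while on DSS they had -0.22, -0.09 and 0.03. The array labelled wild-type water 1 was thus below every Parp1-/- array and wild-type DSS 1 lay within their range, so every direction drawn from the wild-type groups rests on labels that this gene does not bear out in full. Whether its probes fall inside the altered stretch of the gene is not known here. A set of 4 arrays, the 3 labelled wild-type water and wild-type DSS 1, stood apart: the mean of 16 housekeeping genes was -1.85 to -1.10 in them and -0.01 to 0.39 in the other 8. The SD over all probe sets was 0.67 to 0.87 in those 4 arrays and 0.26 to 0.39 in the other 8. The standard errors below assume 1 spread per gene in all groups, which this gap goes against. Smooth muscle genes set 3 further arrays apart, Parp1-/- water 2 and 3 and Parp1-/- DSS 1, with means of 2.67 to 2.73 against -0.45 to 0.02 elsewhere. In whole colon, fewer cells of a type and less RNA per cell cannot be told apart. The colon label was not checked against epithelial markers as levels, for which centred values give no reading.

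**Figure D1:**
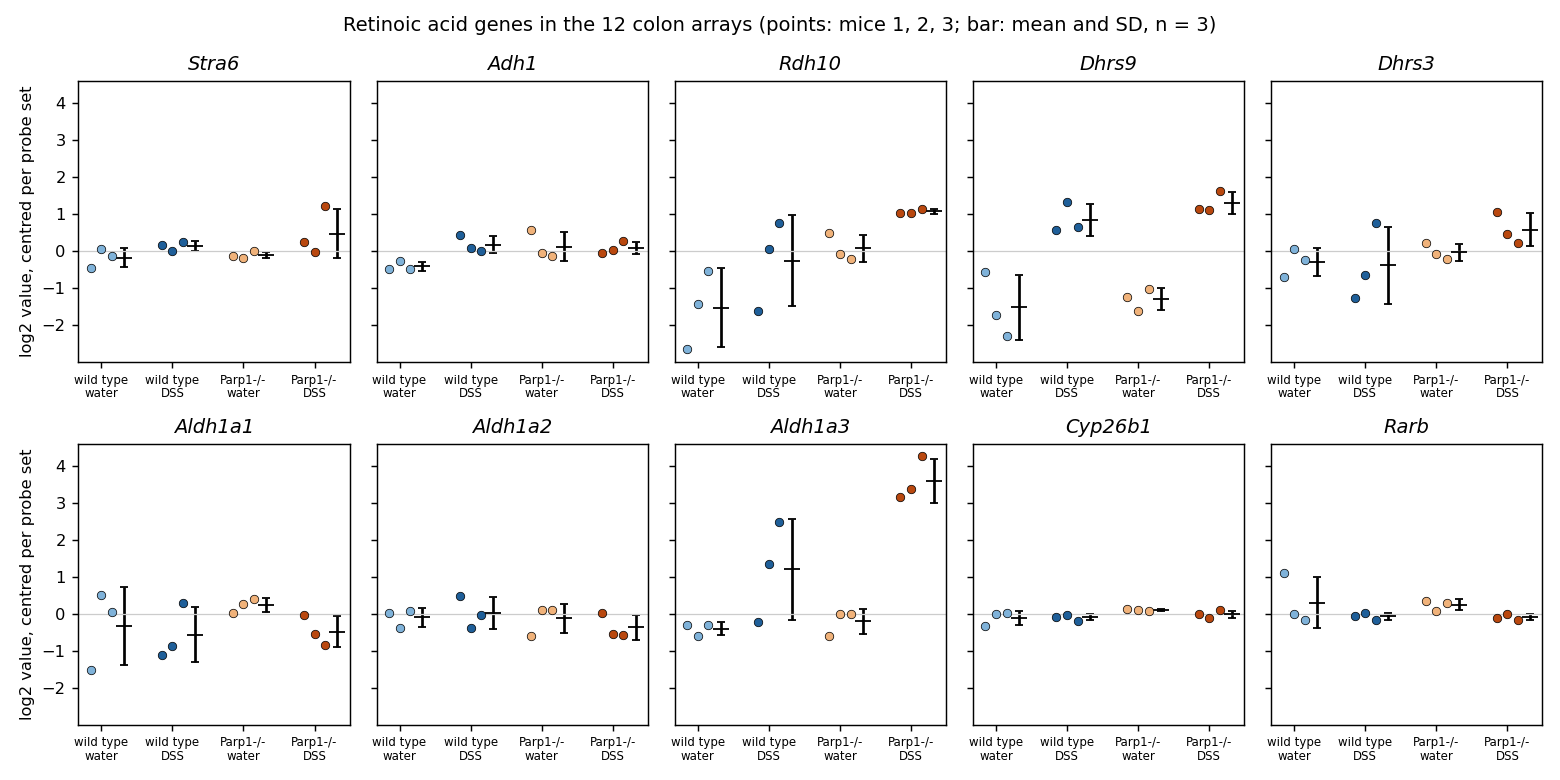
The 10 genes in each of the 12 arrays as log2 values centred per probe set (vertical axis, shared by all panels), grouped by genotype and treatment; each point is 1 mouse and the black bar gives the mean and SD (n = 3). Aldh1a3 reaches 3.16 to 4.26 in Parp1-/- DSS, Dhrs9 is at 0.56 to 1.64 in the 6 DSS arrays, and Cyp26b1 stays between -0.32 and 0.13 throughout.

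Among the genes that handle retinol and retinal, Dhrs9 rose with DSS in wild-type mice and Rdh10 and Stra6 did not pass the test. Dhrs9 encodes a short-chain dehydrogenase that, as characterised in humans, oxidises retinol to retinal. It was at -0.56, -1.71 and -2.27 in the labelled wild-type water arrays 1, 2 and 3 and at 0.56, 1.35 and 0.65 in wild-type DSS. All 3 DSS arrays were above all 3 water arrays. The difference was 2.37 ± 0.38 on the log2 scale (SE, n = 3 mice per group), a 5.17-fold change, with a limma adjusted p of 0.00261. Leaving out the array labelled wild-type water 1 gave 2.85 and leaving out wild-type DSS 1 gave 2.52. It was called under each of the 21 alternatives run for it, with differences from 1.52 (quantile normalization) to 3.08 (array weights). Many of these keep the difference at 2.37 by construction. They are the Parp1-/- arrays left out, the probe set rules, the trend and robust options, only the groups compared and the stricter threshold. Of the 21314 genes, 13.0% were called in this comparison, 8.89% higher and 4.16% lower, so 1 gene of 10 called is near that share and is not a result about the 10 genes as a group.

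Without Parp1, Dhrs9 was at -1.24, -1.62 and -1.02 in water and at 1.15, 1.12 and 1.64 in DSS, again without overlap. The difference there was 2.60 ± 0.38 (SE, n = 3 per group), next to 2.37 in wild type. The difference between the responses, 0.23 ± 0.54, did not pass the test (limma adjusted p = 0.853), and was 1.95 after quantile normalization (adjusted p = 0.192). Housekeeping genes had a median DSS difference of 1.32 in wild-type mice and 0.00 in Parp1-/- mice, and their part in the wild-type Dhrs9 difference was not tested. Split by smooth muscle genes, each side of this contrast has 1 mouse in 1 of its groups, so the split values are descriptions with no replicate check. The Dhrs9 difference was 2.47 among the arrays of high smooth muscle genes (1 DSS and 2 water mice) and 2.62 among those of low ones (2 DSS mice and 1 water mouse).

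The promoter of Dhrs9 is shown because this is the gene of the 10 that passed the test. Promoter windows from RefSeq (build GRCm38.p6), 250 bases before to 50 after a transcript start, were matched for 8 of the 10 genes, 14 windows in all; those of Aldh1a3 and Rdh10 were not analysed here. Retinoic acid receptors bind pairs of a core hexamer, searched here on both strands as AGGTCA, with its variant AGTTCA, then as GGGTCA, with its variant GGTTCA, repeated in the same direction with 1, 2 or 5 bases between. The Dhrs9 window holds a single hexamer on the reverse strand, in capitals, starting 88 bases before the start, and no pair. At least 1 hexamer is found in 43.7% of the 32851 mouse promoter windows, so this match is common.

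Dhrs9, chr2:69380212-69380511, forward strand: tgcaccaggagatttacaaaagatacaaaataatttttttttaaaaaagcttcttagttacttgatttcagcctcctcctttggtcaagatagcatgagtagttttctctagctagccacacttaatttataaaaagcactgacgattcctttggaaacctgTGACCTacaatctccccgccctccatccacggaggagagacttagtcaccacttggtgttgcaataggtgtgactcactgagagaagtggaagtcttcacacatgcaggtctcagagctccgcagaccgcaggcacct

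Rdh10, the membrane-bound retinol dehydrogenase that limits retinal production in the mouse embryo, was at -2.64, -1.41 and -0.52 in the labelled wild-type water arrays 1, 2 and 3, and at -1.61, 0.06 and 0.78 in wild-type DSS. Those groups overlapped, through wild-type DSS 1, and the difference of 1.27 ± 0.59 (SE, n = 3 per group) did not pass the test (limma adjusted p = 0.17). Without wild-type DSS 1 it was 1.95 (limma adjusted p = 0.0137). It fell to 0.71 without the array labelled wild-type water 1 and to 0.75 without wild-type DSS 3 (both with an adjusted p of 0.459). Without Parp1, Rdh10 was at 0.50, -0.06 and -0.20 in water and at 1.04, 1.04 and 1.15 in DSS. The 3 DSS arrays lay above the 3 water arrays and close together, with a difference of 0.999 ± 0.59. In the same split of 1 against 2 and 2 against 1 mice it was 1.17 among arrays of high smooth muscle genes and 0.59 among arrays of low ones. Rdh10 was lowest in the 4 arrays of low housekeeping genes, -2.64 to -0.52 against -0.20 to 1.15 in the other 8, and the part of that array difference in the Rdh10 values was not tested.

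**Figure D2:**
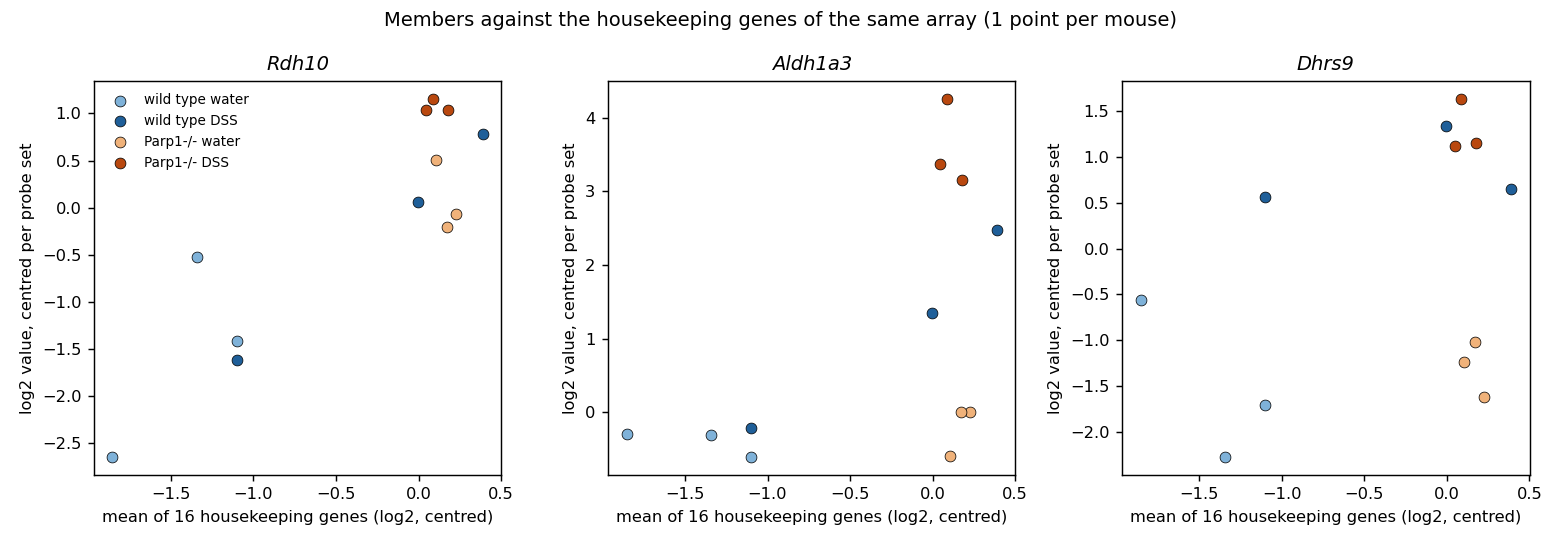
Rdh10, Aldh1a3 and Dhrs9 (vertical axes, centred log2 values) against the mean of 16 housekeeping genes in the same array (horizontal axes, centred log2); each point is 1 mouse, coloured by group. The 4 arrays on the left hold Rdh10 between -2.64 and -0.52, while Dhrs9 separates by treatment on both sides of the gap. On the left, wild-type DSS 1 is the only DSS array, so the separation there has no replicate.

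Adh1, a cytosolic alcohol dehydrogenase that clears excess retinol, averaged -0.40 ± 0.12 (SD, n = 3) in the labelled wild-type water arrays, with values of -0.47, -0.26 and -0.48. Wild-type DSS arrays had 0.43, 0.09 and 0.01, and knockout arrays had 0.57, -0.05 and -0.13 on water, then -0.06, 0.05 and 0.28 on DSS. The labelled wild-type water arrays were below all 9 others, but neither the DSS difference of 0.58 ± 0.21 in wild type nor the genotype difference of 0.53 ± 0.21 in water passed the test (limma adjusted p = 0.0887 and 0.0687). Its 2 probe sets disagreed: 1 averaged -0.98 in the labelled wild-type water arrays and 0.32 in Parp1-/- water, and the other 0.18 and -0.07. The genotype difference in water was 1.31 for the first of them, with an adjusted p of 0.0114 when every probe set was tested on its own.

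Dhrs3, which reduces retinal back to retinol and so opposes retinoic acid formation, was at -0.70, 0.07 and -0.25 in the labelled wild-type water arrays and at -1.26, -0.64 and 0.78 in wild-type DSS. The DSS arrays spanned the water arrays on both sides. Knockout mice had Dhrs3 at 0.23, -0.07 and -0.22 in water and at 1.07, 0.48 and 0.22 in DSS. Those groups overlapped at 0.22 and 0.23, the highest value came from the array of high smooth muscle genes, and the difference of 0.61 ± 0.43 was 0.12 without the 3 such arrays, which leaves 1 water mouse. Stra6, the cell-surface receptor that takes retinol from its plasma carrier, was at -0.44, 0.05 and -0.13 in the labelled wild-type water arrays and at 0.18, -0.00 and 0.24 in wild-type DSS. The knockout values were -0.12, -0.18 and 0.00 in water and 0.24, -0.03 and 1.23 in DSS, where Parp1-/- DSS 3 stood above every other array. Its DSS difference was 0.31 ± 0.28 in wild type (limma adjusted p = 0.474) and 0.58 ± 0.28 in Parp1-/- mice.

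None of the 3 retinal dehydrogenases that make retinoic acid passed the test in wild-type mice, and in the knockout the Aldh1a3 values were the farthest apart between DSS and water. Aldh1a3 was at -0.29, -0.61 and -0.31 in the labelled wild-type water arrays 1, 2 and 3, and at -0.21, 1.34 and 2.48 in wild-type DSS. The DSS arrays lay above the water arrays, and wild-type DSS 1, the DSS array of low housekeeping genes, lay close to them. The difference of 1.61 ± 0.54 (SE, n = 3 per group) did not pass the test, with a limma adjusted p of 0.0714. Single arrays moved it both ways: it was 2.31 without wild-type DSS 1 (limma adjusted p = 0.0016) and 0.97 without wild-type DSS 3 (adjusted p = 0.205). In Parp1-/- mice, where the gene was chosen, Aldh1a3 was at -0.59, 0.00 and -0.00 in water and at 3.16, 3.37 and 4.26 in DSS, without overlap, a difference of 3.79 ± 0.54 or 13.8-fold. In the split by smooth muscle genes it was 3.16 among the high arrays (1 DSS and 2 water mice) and 4.40 among the low arrays (2 DSS mice and 1 water mouse). By group mean the order was Parp1-/- DSS at 3.59 ± 0.58 (SD, n = 3), wild-type DSS at 1.20 ± 1.35, then Parp1-/- water at -0.20 ± 0.34 and wild-type water at -0.40 ± 0.18. Parp1-/- DSS lay above wild-type DSS in every array, while the neighbours from wild-type DSS downwards overlapped.

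Aldh1a1, the retinal dehydrogenase found in many adult epithelia, was at -1.51, 0.50 and 0.05 in the labelled wild-type water arrays and at -1.10, -0.86 and 0.29 in wild-type DSS. These groups overlapped over most of their range. Knockout arrays had 0.03, 0.27 and 0.41 in water and -0.03, -0.55 and -0.84 in DSS, where the DSS arrays lay below the water arrays, with the nearest values close together. Its DSS difference was -0.24 ± 0.48 in wild type (limma adjusted p = 0.778) and -0.71 ± 0.48 in Parp1-/- mice. Aldh1a7, a close relative in the mouse, may share signal with its probes, which was not tested. Aldh1a2, the main retinoic acid enzyme of the mouse embryo and of stromal cells, stayed between -0.58 and 0.48 over all 12 arrays. Its DSS difference was 0.11 ± 0.28 in wild type (limma adjusted p = 0.816) and -0.24 ± 0.28 in Parp1-/- mice, and in both genotypes the groups overlapped. Within Parp1-/- mice the arrays of high smooth muscle genes had Aldh1a2 at 0.12, 0.11 and 0.03, and the others at -0.58, -0.55 and -0.57.

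**Figure D3:**
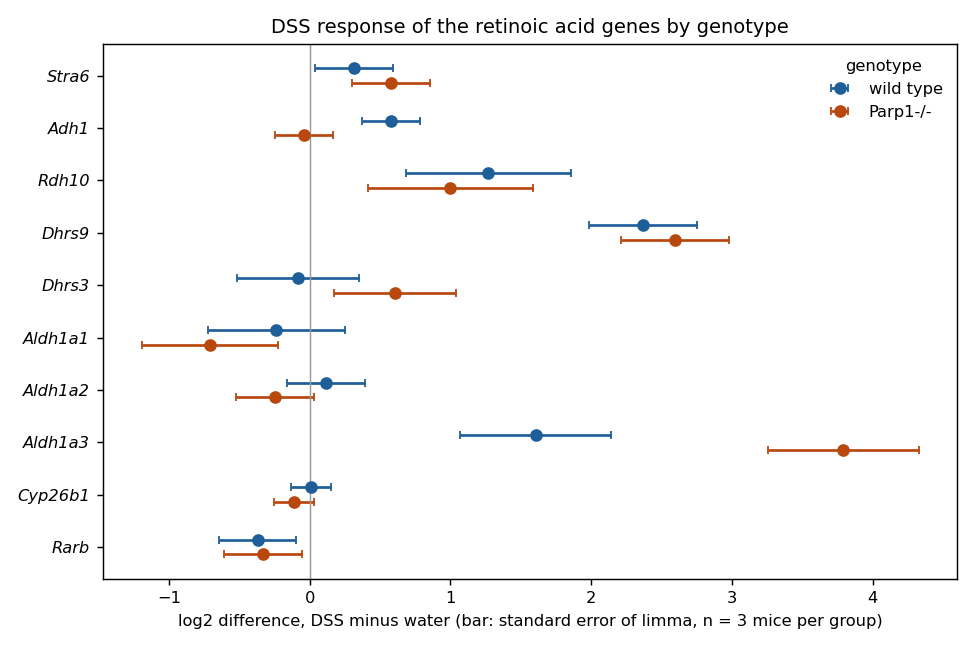
DSS minus water difference (horizontal axis, log2, with the standard error of limma as bar, n = 3 mice per group) of the 10 genes in wild-type mice (blue) and Parp1-/- mice (orange). Dhrs9 lies at 2.37 and 2.60, Aldh1a3 at 1.61 and 3.79, and the other 8 genes between -0.71 and 1.27.

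Neither the gene for breakdown nor the receptor gene passed the test in any comparison that was tested. Cyp26b1, which hydroxylates retinoic acid, ran from -0.32 to 0.01 in the labelled wild-type water arrays, from -0.18 to -0.01 in wild-type DSS, from 0.09 to 0.13 in Parp1-/- water and from -0.10 to 0.10 in Parp1-/- DSS. Its DSS difference was 0.01 ± 0.14 in wild type (limma adjusted p = 0.979) and -0.11 ± 0.14 in Parp1-/- mice. Rarb, a retinoic acid receptor whose own gene is a textbook target of retinoic acid, was at 1.10, -0.01 and -0.17 in the labelled wild-type water arrays and at -0.05, 0.03 and -0.16 in wild-type DSS. The value of 1.10 came from the array labelled wild-type water 1 and was the highest of the 12. Knockout arrays had Rarb at 0.36, 0.08 and 0.30 in water and at -0.11, 0.01 and -0.15 in DSS, with the DSS arrays below the water arrays. Its DSS difference was -0.37 ± 0.27 in wild type (limma adjusted p = 0.388) and -0.33 ± 0.27 in Parp1-/- mice.

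The Rarb window is shown because it was the only one of the 14 windows with a pair of hexamers. A further single hexamer in the window is left in lower case. The pair, in capitals below with its spacer, is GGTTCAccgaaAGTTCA: 17 bases on the forward strand of the window, starting 53 bases before the transcript start, with 5 bases between the hexamers. A pair with that spacing is found in 32 of the 32851 windows, or 0.0974%. A match is a description of letters, and where the array's probes lie relative to this start is not known here. The wild-type DSS difference of Rarb was -0.37, and without the array labelled wild-type water 1 its direction turned, to 0.03 ± 0.15.

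Rarb, chr14:16575427-16575726, reverse strand: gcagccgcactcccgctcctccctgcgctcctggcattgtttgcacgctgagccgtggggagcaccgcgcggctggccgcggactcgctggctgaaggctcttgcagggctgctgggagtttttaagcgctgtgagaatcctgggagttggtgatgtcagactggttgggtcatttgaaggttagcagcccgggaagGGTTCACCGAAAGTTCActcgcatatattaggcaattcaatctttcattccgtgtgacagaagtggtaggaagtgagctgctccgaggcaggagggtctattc

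As a group, the 10 genes had a median DSS difference of 0.21 in wild-type mice, with 7 above 0, against a median of -0.05 over all genes. Groups did not overlap for 3 of the 10 (Aldh1a3, Adh1 and Dhrs9, all higher in DSS), against 23.6% of all genes, 11.4% higher and 12.2% lower. In Parp1-/- mice the median was 0.27, with 5 above 0, against 0.01 over all genes. Groups did not overlap for Aldh1a3, Dhrs9 and Rdh10, which were higher, and for Aldh1a1 and Rarb, which were lower, against 12.5% of all genes, 7.82% higher and 4.70% lower. The test called 0.00938% of all genes there, all higher. Since this contrast entered the choice of the genes, nothing is read from those counts.

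In water, none of the 10 genes passed the test between the genotypes (limma), although 31.6% of all genes did, 17.9% higher and 13.7% lower, and 2 of the 10 had an unadjusted p under 0.05, against 46.5% of all genes. Rdh10 was higher in Parp1-/- mice by 1.61 ± 0.59 (SE, n = 3 per group; limma adjusted p = 0.0559), and its groups did not overlap. Without the array labelled wild-type water 1 it was 1.05 (limma adjusted p = 0.192). Without the array labelled wild-type water 3 it was 2.11 and was called (limma adjusted p = 0.0309). Rdh10 was also called without wild-type DSS 1 or wild-type DSS 3, with trend and robust options, with array weights and with only the groups compared. The limma adjusted p in those settings ran from 0.0149 to 0.0471. Housekeeping genes differed by a median of 1.65 in the same comparison, from -0.03 to 2.53, with 13 of 16 called higher. Their part in the Rdh10 difference was not tested. Groups did not overlap for Rdh10, Adh1 and Cyp26b1, all higher in Parp1-/- mice, against 55.4% of all genes, 26.2% higher and 29.2% lower. Aldh1a3 and Dhrs9 differed by 0.21 ± 0.54 and 0.22 ± 0.38 in water (limma adjusted p = 0.771 and 0.654); after quantile normalization Dhrs9 was lower in Parp1-/- mice, by -1.12. The array difference and the genotype cannot be told apart in water.

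Under DSS, none of the 10 genes passed the test between the genotypes, nor did any of the 21314 genes (0% called by limma), while 3 of the 10 had an unadjusted p under 0.05, against 593 of all genes, or 2.78%. Aldh1a3 was higher in Parp1-/- mice by 2.39 ± 0.54 (SE, n = 3 per group), Rdh10 by 1.33 ± 0.59 and Dhrs3 by 0.96 ± 0.43, each with a limma adjusted p of 0.872. Groups did not overlap for Aldh1a3 and Rdh10, against 6.55% of all genes, 2.04% higher and 4.52% lower. Without wild-type DSS 1 the differences were 1.68 ± 0.38 for Aldh1a3, 0.66 ± 0.49 for Rdh10 and 0.52 ± 0.40 for Dhrs3. Without wild-type DSS 3 they were 3.03 ± 0.44, 1.85 ± 0.57 and 1.54 ± 0.31 in the same order, with limma adjusted p of 0.056, 0.131 and 0.0908. The difference between the DSS responses was 2.19 ± 0.76 for Aldh1a3, larger in Parp1-/- mice, and did not pass the test (limma adjusted p = 0.169); it was 1.48 (adjusted p = 0.0754) without wild-type DSS 1 and 2.82 (adjusted p = 0.0408) without wild-type DSS 3. None of the 10 genes was called for a difference in response (Parp1-/- minus wild type), against 2.54% of all genes, 0.216% above 0 and 2.33% below 0. Of the 10, 1 had an unadjusted p under 0.05, against 17.5% of all genes. Both comparisons use the Parp1-/- DSS arrays by which Aldh1a3 was chosen and give no independent support for it. The counts over the 10 genes in both take in Aldh1a3, so nothing is read from them either.

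A longer list of other retinoid genes had 50 names, of which 46 were measured. In wild-type mice 8 of them changed with DSS, 6 higher and 2 lower, against the 13.0% called among all genes, and their median difference was 0.03. The genes that rose were Tgm2, a transglutaminase induced by retinoic acid, by 1.92 ± 0.52 (SE, n = 3 per group; limma adjusted p = 0.0342), Rdh16, a retinol dehydrogenase, by 1.77 ± 0.48, Isx, an intestinal homeobox repressor of carotenoid uptake, by 1.67 ± 0.47, Rdh11, a retinal reductase, by 1.43 ± 0.35, Retsat, which saturates retinol, by 1.31 ± 0.26, and Bco2, which cleaves carotenoids, by 1.03 ± 0.28. Ccr9, the gut-homing receptor that retinoic acid induces on lymphocytes, fell by 0.85 and Sdr16c6, a short-chain dehydrogenase, by 0.79. Ccr9 was at 1.39, 0.63 and 0.50 in the labelled wild-type water arrays and between -0.07 and 0.10 in the other 9. None of the 8 was called after quantile normalization, nor with only these 6 arrays fitted, where the differences are the same by construction and calls over all genes also fell, to 621 higher and 20 lower. Leaving out wild-type DSS 2 gave 1 call, leaving out wild-type DSS 3 gave 2, and leaving out Parp1-/- water 2 or Parp1-/- DSS 1 gave 5. Calls over all genes, 1894 higher and 887 lower with all arrays, fell as well. They were 983 and 228 without wild-type DSS 2 and 1243 and 469 without wild-type DSS 3. Without Parp1-/- water 2 they were 1522 and 492, and without Parp1-/- DSS 1 they were 1597 and 554. In Parp1-/- mice the same DSS difference was 1.46 ± 0.48 for Rdh16, 1.06 ± 0.52 for Tgm2 and 0.84 ± 0.28 for Bco2, against 0.04 for Isx, -0.02 for Retsat and -0.01 for Rdh11. Housekeeping genes had a median DSS difference of 1.32 in wild-type mice, with 15 of 16 above 0 and 9 called higher. Their median in Parp1-/- mice was 0.00, and their part in the 8 calls was not tested.

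In water, 13 of the 46 genes differed between the genotypes, 7 higher and 6 lower in Parp1-/- mice, against 31.6% of all genes. Isx was higher by 1.98 ± 0.47 (SE, n = 3 per group; limma adjusted p = 0.0115), Retsat by 1.93 ± 0.26, Dgat1, an acyltransferase that can esterify retinol, by 1.86 ± 0.40, Rdh11 by 1.59 ± 0.35, Nrip1, a nuclear receptor corepressor, by 1.28 ± 0.27 and Aldh1a7 by 0.90 ± 0.23. Ccr9, Rarres1, Sdr16c6, Adh7, Sdr16c5 and Bco1, the last of which splits beta-carotene into retinal, were lower, at -0.90, -0.85, -0.84, -0.71, -0.60 and -0.57. The housekeeping median difference of 1.65 and the receptor genes of smell, with a median of 0.38 to 0.42 in the 4 arrays that stood apart and -0.12 to 0.05 in the other 8, moved with this comparison, and their part in these calls was not tested. The count was 7 without Parp1-/- water 2, where calls over all genes also fell, from 3813 higher and 2912 lower to 2172 and 776. Leaving out the 3 arrays of high smooth muscle genes leaves 1 mouse in Parp1-/- water, assumed to vary like the other groups, so no count is read there. The differences there were 1.87 for Retsat, 1.98 for Isx, 1.70 for Dgat1 and -0.90 for Ccr9, with larger standard errors, and 0.94 for Rdh11. Under DSS none of the 46 was called between the genotypes (limma), with 2 at an unadjusted p under 0.05, against 2.78% of all genes: Rdh13 at -0.54 ± 0.22 and Retsat at 0.60 ± 0.26, followed by Lrat, which esterifies retinol, at 0.44 ± 0.23 and Dgat1 at 0.64 ± 0.40. For the difference in response none was called and 10 of 46 had an unadjusted p under 0.05, against 17.5% of all genes, the smallest for Retsat at -1.34 ± 0.37, Sdr16c6 at 0.79 ± 0.24, Ccr9 at 0.94 ± 0.29 and Rdh11 at -1.44 ± 0.50. These values put the wild-type DSS change of those 4 genes beside little change in Parp1-/- mice, without passing the test. Housekeeping genes had a median difference in response of -1.36, with 14 of 16 below 0. Retsat and Rdh11 had the sign of that median, Sdr16c6 and Ccr9 the opposite one, and the part of the array difference in these values was not tested.

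**Figure D4:**
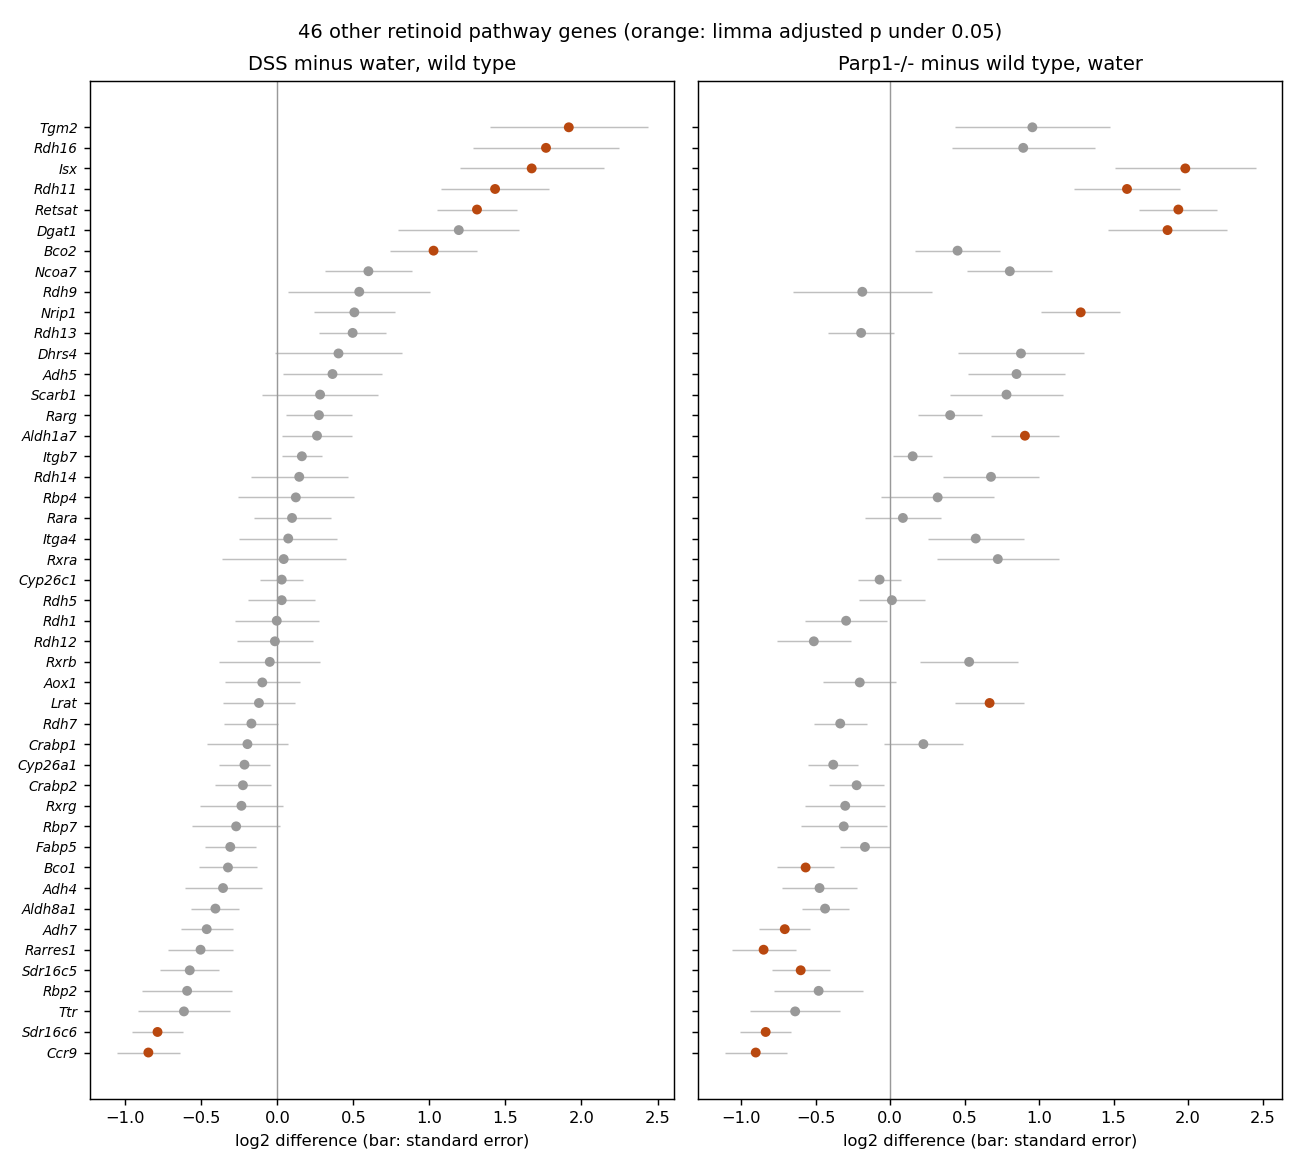
The 46 other retinoid pathway genes, ordered by their DSS difference in wild-type mice: DSS minus water in wild type on the left and Parp1-/- minus wild type in water on the right (horizontal axes, log2, bar the standard error of limma, n = 3 mice per group). Orange points passed the test, 8 on the left and 13 on the right; both panels use the labelled wild-type water arrays, so they share those values.

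The genes whose values lay nearest to those of Aldh1a3 over the 12 arrays, by the root mean square of the 12 differences, were Steap4, a metalloreductase, at 0.69, Plat, tissue plasminogen activator, at 0.74, Cd14, a co-receptor for bacterial lipopolysaccharide, at 0.97, Anxa8, an annexin, at 1.06, and Cxcl5, a chemokine for neutrophils, at 1.08. The median over the 17040 genes ranked was 2.04. Steap4 was at 0.06, 2.27 and 2.77 in wild-type DSS and at 2.62, 2.46 and 2.81 in Parp1-/- DSS. Its highest arrays of both genotypes were alike, whereas Aldh1a3 was higher in each Parp1-/- DSS array than in any wild-type DSS array. Plat was at -0.09, 0.05 and 2.16 in wild-type DSS and at 2.55, 2.56 and 2.38 in Parp1-/- DSS, so it too was higher in every Parp1-/- DSS array. So was Anxa8, at -0.30 to 0.68 in wild-type DSS and 0.99 to 3.29 in Parp1-/- DSS, while Cd14 and Cxcl5 overlapped between those groups. Of the 9 other retinoic acid genes, Dhrs9 was nearest, at rank 78, then Rdh10 at rank 177, and Aldh1a1 was at rank 16952. The 12 arrays include the Parp1-/- DSS arrays by which Aldh1a3 was chosen and where its values were largest. The ranks and the contrasts between the DSS groups thus give no independent support for it. The arrays also share the gap in housekeeping genes, and these ranks describe the arrays only.

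**Figure D5:**
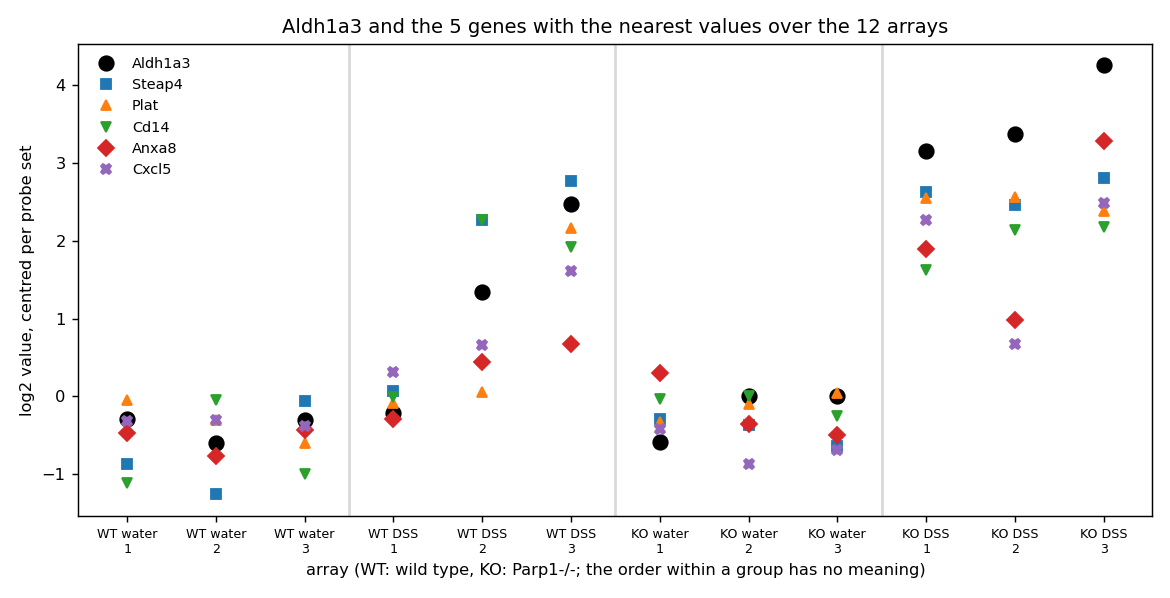
Aldh1a3 (black circles) and the 5 genes with the nearest values, as centred log2 values (vertical axis) in each of the 12 arrays (horizontal axis), 1 point per mouse and gene. All 6 genes are at 0.31 or lower in wild-type DSS 1 and in the 6 water arrays. Aldh1a3 is the highest of the 6 in each Parp1-/- DSS array, the arrays by which it was chosen.

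Marker lists of other cell types are given beside these genes as means over each list. The mean of 8 neutrophil markers ran from -0.69 to -0.47 among the labelled wild-type water arrays, and DSS arrays of wild type had 1.02 to 2.16. Knockout arrays ran from -1.22 to -0.51 on water and from 0.23 to 1.61 on DSS. The neutrophil list thus separated DSS from water in both genotypes, as Dhrs9 and Aldh1a3 did, and its DSS ranges overlapped between the genotypes. The mean of 11 macrophage and dendritic cell markers, Cd14 among them, did not overlap between the wild-type groups (-0.37 to -0.15, then -0.06 to 0.65), while the knockout ranges of -0.21 to 0.36 and 0.09 to 0.31 overlapped. The mean of 12 of 13 listed squamous epithelium markers was 0.27 to 0.48 in the 4 arrays that stood apart and -0.27 to 0.21 in the other 8. The mean of 9 fibroblast markers reached 1.65, 1.52 and 0.77 in the 3 arrays of high smooth muscle genes and ran from -0.83 to 0.51 elsewhere. The mean of 12 colonocyte markers was -1.41 to -0.81 in the 4 arrays that stood apart and -0.09 to 0.49 in the other 8, an ordering that Rdh10 shared. The part of these cell types in the values of the retinoic acid genes was not tested.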

How the data were processed

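Biotin-labelled RNA from the whole colons of 12 mice was read on Affymetrix arrays, per the labels' protocols. The authors deposited a table of log2 values, -4.83 to 5.47, whose median per probe set is 0 to within 5e-07, so each probe set had been centred; the sources used here do not give the log base, direction, software or normalization. Array medians ran from -0.0438 to 0.0999, and no 2 arrays were identical. Of 31693 probe sets, 22586 had 1 gene symbol, 1756 several and 7351 none; symbols were updated through a RefSeq gene table (22406 matched), and probe sets of 1 gene were averaged.

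The 4 group means were fitted together for all 21314 genes by limma 3.58.1 (lmFit and eBayes, R 4.3.3). Benjamini-Hochberg adjustment ran over the whole table, and an adjusted p under 0.05 was called. The fit was tested on simulated data in which a gene had the same spread in all arrays. That leaves out the unequal spread of the real arrays, so it does not show how the fit does under it. Replicate numbers follow the order of deposit and only name mice. Tables and figures used Python 3.11.15, pandas 2.3.3 and matplotlib 3.10.9, and promoter sequences came from RefSeq (GRCm38.p6).

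The genes, the lists, the comparisons and the other settings tried were chosen with earlier results of these data known. The text names the 10 genes and Parp1, up to 6 called genes of the pathway list with the largest change in each direction (the 4 of smallest p where none was called), and the 5 genes nearest to Aldh1a3, with predicted genes, clones and receptor genes passed over. The number of arrays limits the precision, and signal over background is unknown.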

Additional observations from a re-analysis of the deposited data

How the results depend on the processing

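Comparisons were repeated under 10 to 22 alternatives each: other normalizations and probe set rules, other limma options, array weights (whose estimation stopped before full convergence), only the groups compared, a stricter threshold, each array left out, and the 3 arrays of high smooth muscle genes left out. Fitting only 8 arrays, with the 3 labelled wild-type water arrays and wild-type DSS 1 left out, was added after seeing the data and called none of the genes under DSS. Of the 10 retinoic acid genes, the 1 called in the wild-type DSS response became 3 with array weights and 1 to 3 with single arrays left out (3 without wild-type DSS 1, which added Aldh1a3 and Rdh10). The 0 called between the genotypes in water became 1 after quantile normalization (Dhrs9, reversed to -1.12). It was also 1 with array medians set to 0 and with every probe set on its own (Adh1 in both). Trend and robust options, array weights and only the groups compared gave 1 as well (Rdh10 in each). Single arrays left out gave 0 to 2 (2 without wild-type DSS 1, Adh1 and Rdh10). Under DSS 0 became 4 with array weights, and for the difference in response 0 became 2 with array weights and 0 to 1 with single arrays left out. Calls over all 21314 genes rose too with array weights, to 4269 higher and 4503 lower in the wild-type DSS response. Between the genotypes they rose to 5221 and 5550 in water and 3516 and 2668 under DSS, and for the difference in response to 3726 and 3949. Without wild-type DSS 1 they were 4191 and 2674 in the wild-type DSS response, and 4960 and 4424 between the genotypes in water. In Parp1-/- mice the Aldh1a3 difference of 3.79 was 4.40 without the 3 arrays of high smooth muscle genes and 3.46 to 4.01 with single arrays left out. Of the other pathway genes, the 8 called in wild type became 0 after quantile normalization, 0 with only the groups compared (the same differences, fewer arrays behind the error), 15 with array weights, 3 without the 3 arrays of high smooth muscle genes, 1 at an adjusted p under 0.01, and 1 to 11 with single arrays left out. The 13 called in water became 5 after quantile normalization, 23 with array weights, 6 at an adjusted p under 0.01, and 7 to 16 with single arrays left out. Without the 3 arrays of high smooth muscle genes, which leaves 1 mouse in Parp1-/- water, Retsat was at 1.87 and Isx at 1.98. Array weights gave 11 calls under DSS and 16 for the difference in response, where single arrays left out gave 0 to 3. Over all genes, the wild-type DSS response had 1894 higher and 887 lower calls, and 218 and 14 after quantile normalization. Those calls were 983 and 228 without wild-type DSS 2 and 1243 and 469 without wild-type DSS 3. The genotypes in water had 3813 higher and 2912 lower calls, 4133 and 1654 with array medians set to 0, which moved the median of all genes by 0.11. The calls in water were 1773 and 446 after quantile normalization and 2172 and 776 without Parp1-/- water 2. Because each probe set was centred, its mean is not a signal level. The trend option and the choice of the probe set with the highest mean therefore do not follow signal. With trend and robust options the standard error of Aldh1a3 in the wild-type DSS response was 1.70, against 0.54 in the main fit. Where not stated, the cause of a change was not tested. No paired analysis was possible because the labels give the mice no shared replicate numbers.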
